A study of Homo sapiens with 6 samples.

Results

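A set of 10 genes that shape chromatin loops and domains were followed in the RNA-Seq libraries of U2OS cells: CTCF, the cohesin ring genes SMC1A, SMC3, RAD21, STAG1 and STAG2, the loader gene NIPBL, and the regulators WAPL, PDS5A and PDS5B. They were listed by name and not by a cut on any measured value, but with earlier results of these data known. All 10 were found among the 67140 Ensembl genes counted. The study compared untreated cells with cells given 1.5 μg/ml adriamycin or 100 μM etoposide (spelled Etopside in the sample labels) for 4 h, with 2 libraries in each of the 3 groups. Both drugs poison topoisomerase II, and the study examined how adriamycin reorganizes chromatin. U2OS is a human osteosarcoma line, and all cells were labelled wild type (WT). The counts of the 10 genes were analysed in the 2 etoposide libraries. For the control and adriamycin libraries 220 to 292 genes could be read, with 0 of the 10 genes among them, and all further genes of those libraries were not analysed here. The values below are therefore levels in etoposide-treated cells, with no comparison against untreated or adriamycin-treated cells.

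Cohesin is a ring-shaped complex that entraps DNA. SMC1A and SMC3 form the arms of the ring, RAD21 (the kleisin) closes it, and STAG1 or STAG2 binds RAD21. NIPBL, with its partner MAU2, loads cohesin and drives the extrusion of DNA loops, CTCF bound to DNA stops the moving ring at domain borders, and WAPL together with PDS5A or PDS5B releases cohesin from chromatin. The same ring holds sister chromatids together until mitosis.

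The etoposide libraries held 21450766 and 14244235 counts, and the sources do not settle whether they came from separate cultures. The study calls its expression replicates technical without more detail, and for Hi-C panels it uses the same word for cells that were cultured independently. The p-values here set each gene's split of counts between these libraries against counting error alone and estimate no spread among libraries. A difference between the libraries may be technical. The labels give the tissue as Bone and the cell type as Epithelial. Of the osteoblast-lineage markers, COL1A1 stood at 3463 and 3624 CPM (counts scaled to the library total). ALPL (10.0 and 9.20 CPM), RUNX2 (4.71 and 4.84 CPM) and SPP1 (1.77 and 1.61 CPM) were lower but above 1 CPM. COL1A2 (5 and 2 counts), SP7 (5 and 3 counts) and BGLAP (8 and 2 counts) were close to 0. Of the epithelial markers, KRT8 stood at 938 and 848 CPM, KRT18 at 231 and 214 CPM and EPCAM at 13.7 and 11.9 CPM. CDH1 stood at 1.40 CPM in each library and KRT19 at 1 and 0 counts. Of the mesenchymal markers, VIM stood at 855 and 786 CPM, FN1 at 500.4 and 625 CPM and CDH2 at 126 and 136 CPM. The leukocyte genes PTPRC (6 counts in each library) and CD3E (0 and 2 counts) and the endothelial gene CDH5 (4 and 6 counts) were near the floor of 3 counts that a count of 0 allows, and the other endothelial gene, PECAM1, lay above it with 22 and 14 counts (1.03 and 0.98 CPM).

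All 10 genes were expressed. Each passed 1 CPM in both libraries, as did 23.1% of all genes and 65.6% of the 19892 protein-coding genes. Together they took 0.122% and 0.127% of all counts, and RAD21 and SMC1A alone supplied 54.2% and 53.1% of the counts of the 10. A level per length is given as CPM per kilobase of exon, where the length is that of all annotated exons of the gene in GENCODE release 44. These levels ran from 1.45 ± 0.15 for PDS5B to 26.6 ± 0.43 for RAD21 (SD, n = 2 for all means here), and the median of the 10 was 7.40, against 5.28 over the 13041 protein-coding genes that passed 1 CPM. In bulk RNA, fewer expressing cells and less RNA per cell cannot be told apart, so each level is an average over the culture.

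The ring genes differed in level, and how far depended on the gene length used. RAD21, cut by separase at anaphase, had 8292 and 5382 counts, or 387 and 378 CPM. SMC1A had 5853 and 4206 counts, or 273 and 295 CPM. SMC3, its partner in the ring, had 2942 and 1913 counts, or 137 and 134 CPM. Each gene's CPM were close in the libraries. Counts and CPM grow with the length of the RNA, so the genes are compared per length.

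Per length, RAD21 (26.9 and 26.3 CPM per kb) and SMC1A (25.2 and 27.3 CPM per kb) overlapped, and SMC3 (8.85 and 8.66 CPM per kb) lay below both. The level of SMC1A was 2.85 times that of SMC3 in the first library (95% interval 2.72 to 2.98, Clopper-Pearson) and 3.15 times in the second (2.98 to 3.32). These intervals, like all counting intervals here, cover counting error only, with each read taken as independent. Reads amplified by PCR are not independent molecules, so the intervals may be too narrow. The size of this gap depended on the length used: the annotated exons of SMC3 cover 15505 bases, but its MANE Select transcript, the single reference transcript chosen jointly by RefSeq and Ensembl, has 5522 bases. With MANE Select lengths SMC1A was 1.19 times SMC3. RAD21, whose transcript has 3660 bases against 14382 of annotated exon, rose to 104 ± 1.69 CPM per kb and stood alone above SMC1A at 29.3 ± 1.63. All levels with MANE Select lengths here still use the counts of the whole gene. Reads on exons outside that transcript are included, which raises most the genes with much further annotated exon.

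STAG1 and STAG2 are alternative subunits of the ring. Cohesin with STAG1 is known mainly for stable, CTCF-anchored contacts, and cohesin with STAG2 for shorter-range contacts. STAG1 had 796 and 495 counts (37.1 and 34.8 CPM) and STAG2 had 817 and 588 counts (38.1 and 41.3 CPM). The values of each gene were close in the libraries. Per kilobase of annotated exon STAG1 stood at 4.73 and 4.43 and STAG2 at 2.38 and 2.58 CPM per kb, a STAG2 level of 0.50 and 0.58 times that of STAG1. With MANE Select lengths it was 1.08 times, so these counts do not settle which of the pair was more abundant. Of the annotated exon bases of STAG1, 21.2% also belong to PCCB on the opposite strand, and the study's text names no strand setting for the counting.

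NIPBL, the large loader protein mutated in Cornelia de Lange syndrome, had 1222 and 1098 counts, or 57.0 and 77.1 CPM. This was the widest gap between the libraries among the 10 genes. Its level was 5.35 ± 1.14 CPM per kb, higher than that of its partner MAU2, which had 622 and 464 counts and stood at 2.64 and 2.96 CPM per kb. The values of NIPBL (4.55 and 6.16 CPM per kb) lay above those of MAU2 in both libraries, but with MANE Select lengths the means were 6.43 and 6.35 CPM per kb.

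Among the release factors, WAPL, which opens the gate through which DNA leaves the ring, had 1699 and 1227 counts (79.2 and 86.1 CPM). PDS5A had 2764 and 2016 counts (129 and 142 CPM). Its paralog PDS5B had 381 and 293 counts (17.8 and 20.6 CPM). Per annotated exon length the WAPL and PDS5A levels, 10.99 and 11.96 against 10.6 and 11.6 CPM per kb, overlapped, with WAPL higher within each library. With MANE Select lengths PDS5A (18.1 and 19.8 CPM per kb) lay above WAPL (12.6 and 13.7) in both libraries. PDS5B, at 1.35 and 1.56 CPM per kb of annotated exon, was the lowest of the 10 genes with either length. The PDS5A level was 7.84 times that of PDS5B in the first library (95% interval 7.04 to 8.75, Clopper-Pearson) and 7.43 times in the second (6.57 to 8.43), and 7.40 times on average with MANE Select lengths. Of the 4 ratios computed under each length (STAG2 to STAG1, PDS5A to PDS5B, SMC1A to SMC3 and RAD21 to SMC3), this one moved by less than 1 SD.

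CTCF, the zinc-finger protein that marks loop anchors, had 1345 and 845 counts, or 62.7 and 59.3 CPM. Per annotated exon length its level was 6.20 and 5.87 CPM per kb, which overlapped that of NIPBL. This level was above 53.5% of the 13041 expressed protein-coding genes, close to the middle. With MANE Select lengths CTCF (16.4 and 15.6 CPM per kb) lay above NIPBL (5.46 and 7.39) in both libraries. Of the annotated exon bases of CTCF, 13.1% are shared with a gene on the opposite strand. The corresponding share, on either strand, was 5.89% for RAD21, 1.68% for STAG2, 0.36% for SMC1A and 0 for SMC3, NIPBL, WAPL, PDS5A and PDS5B. CTCFL, the germline paralog also called BORIS, had 10 and 11 counts in the same libraries, under 1 CPM in both.

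**Figure D1:**
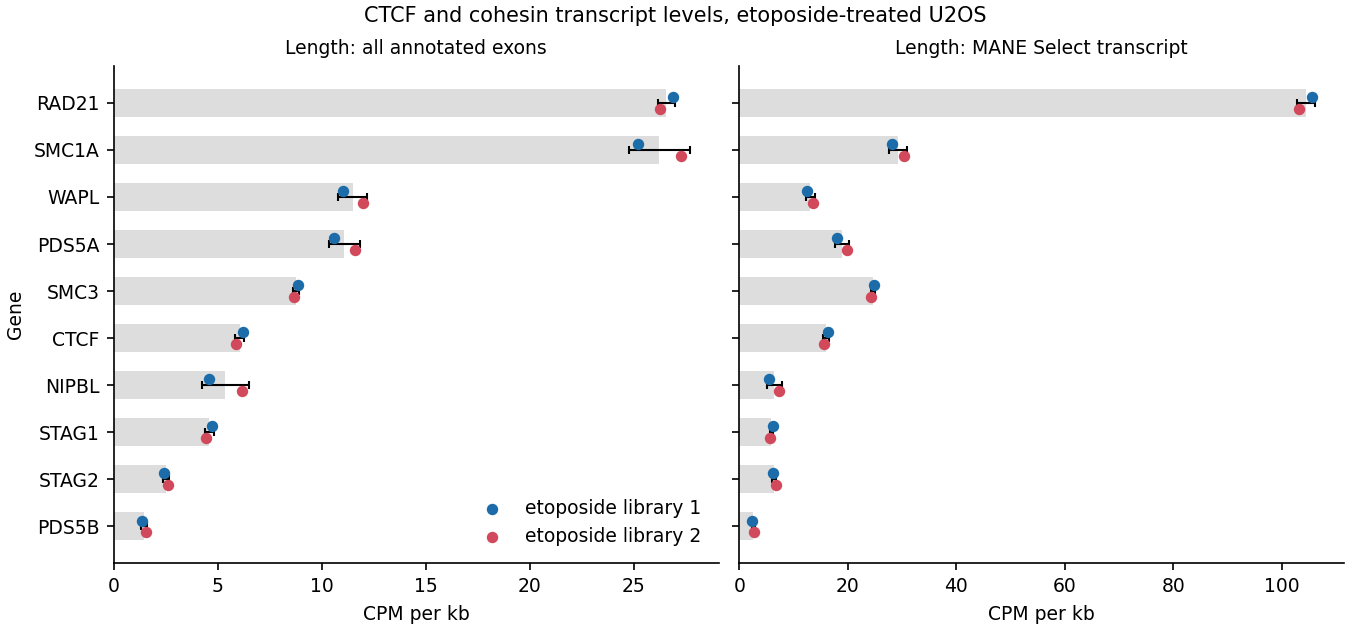
Levels of the 10 genes in etoposide-treated U2OS cells, in CPM per kb, with the length taken from all annotated exons (left) or from the MANE Select transcript (right); points are the 2 libraries, bars their mean and error bars the SD. RAD21 and SMC1A lead on the left at 26.6 and 26.2 CPM per kb, RAD21 leads alone on the right at 104, and PDS5B is lowest on both sides.

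Ordered by level per annotated exon length, the genes ran RAD21, SMC1A, WAPL, PDS5A, SMC3, CTCF, NIPBL, STAG1, STAG2 and PDS5B. Of the 9 neighbouring pairs in this order, 4 overlapped between the libraries: RAD21 with SMC1A, WAPL with PDS5A, CTCF with NIPBL, and NIPBL with STAG1. With MANE Select lengths SMC3 moved from the fifth place to the third and WAPL from the third to the sixth. Per annotated exon length, RAD21 exceeded 87.5% of the expressed protein-coding genes, SMC3 63.8%, STAG1 46.4% and PDS5B 21.6%.

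Each gene's split of counts between the etoposide libraries was compared with counting error by an exact two-sided binomial test, with library sizes scaled by edgeR's TMM method and Benjamini-Hochberg adjustment over the 18155 genes that had at least 20 counts. This test compares 2 libraries of one treatment and says nothing about etoposide. Of all tested genes, 19.3% differed at an adjusted p under 0.05, and of the 7959 genes with summed counts in the range of the 10 (674 to 13674), 30.3% did. Of the 10 genes, 2 differed, 1 higher in the second library (as were 7.9% of all genes tested) and 1 higher in the first (as were 11.4%). NIPBL was higher in the second library by 0.39 on the log2 scale (95% interval 0.27 to 0.51), with an adjusted p of 5.97e-09 from the exact binomial test. RAD21 was lower there by a log2 ratio of −0.081 (−0.13 to −0.031), with an adjusted p of 0.0110 from the exact binomial test.

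The absolute log2 ratio of NIPBL exceeded that of 98.2% of the genes in this count range, and the median was 0.084 over the 10 genes and 0.11 over the range. Scaled by the total count in place of TMM, NIPBL still differed, RAD21 did not, and SMC1A and PDS5A did. The other 8 genes had log2 ratios between −0.14 (STAG1) and 0.16 (PDS5B), and a p that missed the threshold does not show that their levels were equal. Of the marker genes, KRT8, KRT18 and VIM were also higher in the first library and FN1 in the second, and their part in the NIPBL difference was not tested.

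**Figure D2:**
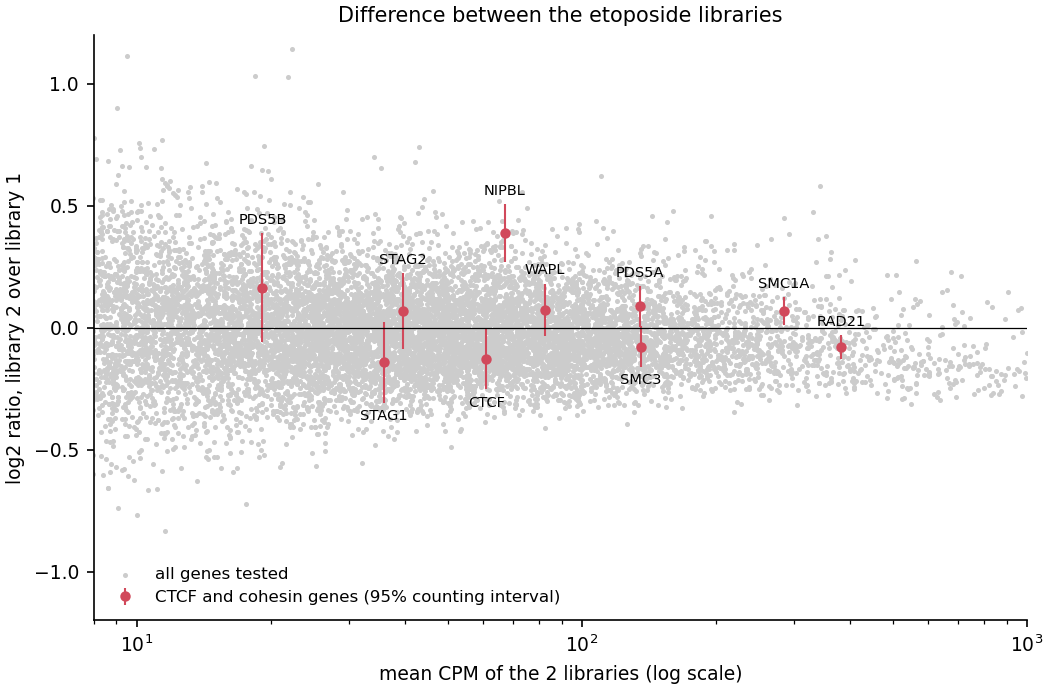
Log2 ratio of the second to the first etoposide library against mean CPM on a log axis, for genes in the CPM range of the axis; grey points are genes tested and red points the 10 genes with 95% counting intervals. NIPBL, at 0.39, stands above the others, which lie between −0.14 and 0.16.

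The 10 genes vary greatly in the length of DNA that they cover. RAD21 spans 28.8 kb (chromosome 8, bases 116845934 to 116874776 of GRCh38), SMC3 38.4 kb (chromosome 10, 110567684 to 110606048), SMC1A 48.6 kb (chromosome X, 53374149 to 53422728), CTCF 76.7 kb (chromosome 16, 67562467 to 67639177) and WAPL 86.5 kb (chromosome 10, 86435256 to 86521792). PDS5A spans 155.1 kb (chromosome 4, 39822863 to 39977956), NIPBL 189.6 kb (chromosome 5, 36876769 to 37066413), PDS5B 191.6 kb (chromosome 13, 32586452 to 32778019), STAG1 416.2 kb (chromosome 3, 136336236 to 136752403) and STAG2 462.5 kb (chromosome X, 123960212 to 124422664). The median span of the 10 was 121 kb, against 34.2 kb over the expressed protein-coding genes.

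The longer genes tended to be the lower ones. PDS5A, at 155.1 kb, was an exception and stood above CTCF in both libraries, per annotated exon length and with MANE Select lengths. Per annotated exon length PDS5A also stood above SMC3 in both libraries. With MANE Select lengths SMC3 (24.8 and 24.3 CPM per kb) lay above PDS5A (18.1 and 19.8). The 5 genes spanning 100 kb or more stood between 1.45 and 11.1 CPM per kb, with a median of 4.58, and the 5 shorter genes between 6.04 and 26.6 CPM per kb, with a median of 11.5; the limit of 100 kb was set after the values were seen. Over the expressed protein-coding genes the same split gave medians of 2.01 CPM per kb (2685 genes) and 6.84 CPM per kb (10356 genes). In both span classes the median of the CTCF and cohesin genes was above that of all expressed genes, without a test. Across the 10 genes, Spearman's rho between span and level was −0.83, or −0.90 with MANE Select lengths, and across the 13041 expressed genes it was −0.35. With CPM not divided by length it was −0.85 across the 10 genes and −0.097 across the expressed genes. All points come from the same 2 libraries and genes are not independent replicates, so these coefficients are descriptions. Whether the relation is the same in untreated cells was not analysed here.

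**Figure D3:**
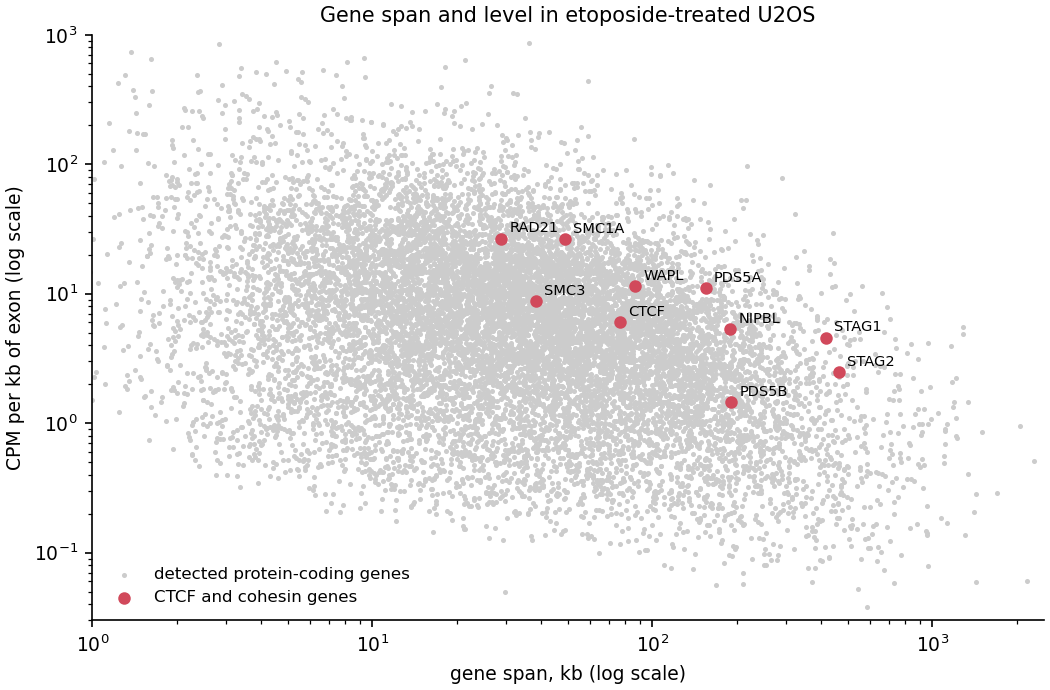
Level in CPM per kb of exon (mean of the 2 etoposide libraries) against gene span in kb, both on log axes, for expressed protein-coding genes (grey) and the 10 genes (red). RAD21 and SMC1A, under 50 kb, are highest, and PDS5B, STAG1 and STAG2, over 190 kb, are the lowest.

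Of the 10 genes, 4 start next to a long noncoding RNA gene on the opposite strand, named for the coding gene with the ending DT (divergent transcript). The starts lie 69 bases apart for NIPBL, 153 for WAPL, 158 for CTCF and 227 for STAG1. Such pairs share one stretch of promoter DNA from which RNA is made in both directions. For NIPBL, CTCF and WAPL the whole stretch between the annotated starts could be read from RefSeq promoter sequences (build GRCh38.p14). The stretches are shown because each lies between a member and a noncoding neighbour whose level differs greatly among the pairs. Each is written 5′ to 3′ on the strand of the coding gene, with matches to the motifs named below in capitals. That of NIPBL is at chr5:36876701-36876768 (plus strand), that of CTCF at chr16:67562310-67562466 (plus strand) and that of WAPL at chr10:86521793-86521944 (minus strand).
NIPBL: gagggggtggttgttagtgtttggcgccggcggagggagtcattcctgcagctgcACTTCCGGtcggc
CTCF: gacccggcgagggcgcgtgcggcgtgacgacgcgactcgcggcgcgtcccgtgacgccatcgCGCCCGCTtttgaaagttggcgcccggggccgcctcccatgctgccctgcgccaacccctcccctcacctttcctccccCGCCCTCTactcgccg
WAPL: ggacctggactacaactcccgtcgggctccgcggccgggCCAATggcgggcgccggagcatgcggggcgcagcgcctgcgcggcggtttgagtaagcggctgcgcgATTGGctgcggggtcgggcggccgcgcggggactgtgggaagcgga

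NIPBL-DT was at least as high as NIPBL per exon length. It had 1312 and 850 counts, or 61.2 and 59.7 CPM, and its exons overlap those of 0 other genes. Per kilobase of exon NIPBL-DT stood at 8.81 and 8.60 and NIPBL at 4.55 and 6.16, a ratio of 1.94 (95% interval 1.79 to 2.096, Clopper-Pearson) in the first library and 1.40 (1.28 to 1.53) in the second. The split of NIPBL-DT between the libraries had a log2 ratio of −0.084 (−0.21 to 0.042) and did not pass the exact binomial test (adjusted p = 0.414). Whether its split differed from that of NIPBL was not tested.

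The other divergent RNAs were scarce. WAPL-DT had 110 and 82 counts (1.68 and 1.88 CPM per kb). CTCF-DT had 18 counts in each library (0.93 and 1.41 CPM per kb), and STAG1-DT had 3 and 6. In these 3 pairs the coding gene stood above its neighbour in both libraries per exon length, and in the NIPBL pair the neighbour stood above the coding gene. RAD21-AS1, which starts inside RAD21 on the opposite strand, had 7 and 3 counts, and STAG2-AS1 had 2 and 1. Of the processed pseudogenes, SMC3P1 had 5 counts in each library and RAD21P1 had 0 in both.

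**Figure D4:**
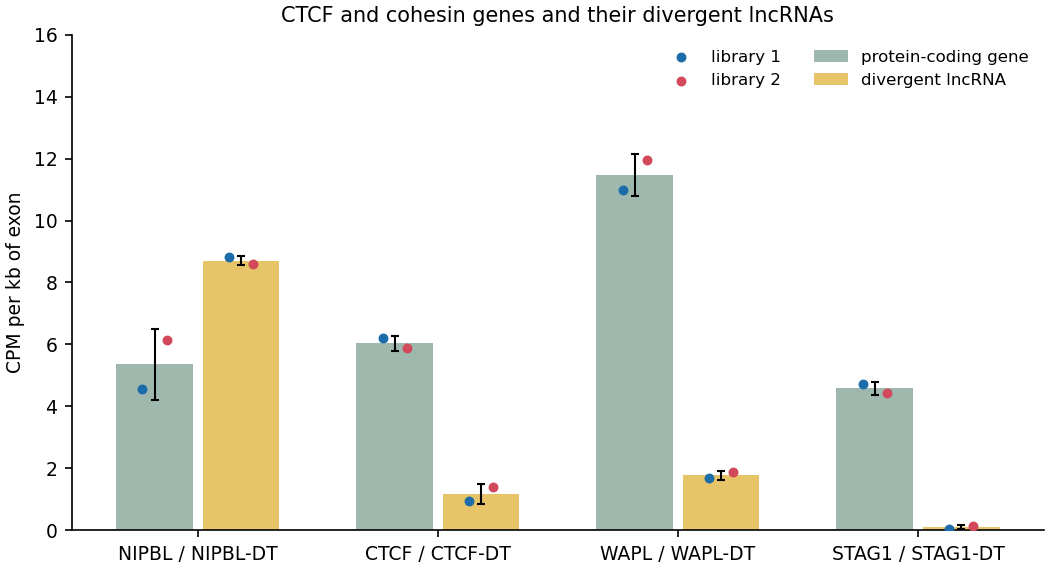
Levels in CPM per kb of exon of 4 coding genes and of the long noncoding RNA that starts next to each on the opposite strand; points are the 2 etoposide libraries, bars their mean and error bars the SD. NIPBL-DT, at 8.81 and 8.60 CPM per kb, is above NIPBL at 4.55 and 6.16, and WAPL-DT, CTCF-DT and STAG1-DT lie below their coding genes.

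The RefSeq windows of 300 bases around the start covered 9 of the 10 genes, with 12 windows. They held a median of 67.2% G and C and 34 CG dinucleotides, against 58.7% and 14 over all 35116 windows, with SMC3 lowest at 56.0% and WAPL highest at 76.3%. SMC3 thus lay below the median of all windows in G and C, and the lowest count of CG dinucleotides, 16, was in 1 of the STAG2 windows. Motifs chosen after the sequences were seen were searched on both strands, in any window of a gene. The CTCF core, taken as AGNGGGCG, was present for 5 of the 9 genes (CTCF itself, STAG1, PDS5A, PDS5B and WAPL) and for 18.0% of all 27305 genes. This motif is mostly G and C. The windows of these 5 genes held 71.3% to 76.3% G and C, and the other windows of the 9 genes 56.0% to 67.3%. The share among genes of like G and C content was not computed. The YY1 motif, GCCATNTT, was present for CTCF, SMC3 and PDS5B and for 7.97% of all genes. The ETS motif, CCGGAAGT, was present for NIPBL alone of the 9 and for 4.95% of all genes, and CCAAT for 5 of the 9 and 39.7% of all genes. TATAAA was found for 0 of the 9 and for 13.99% of all genes. A match is a description of the letters in the window, and a missing match says nothing about the factor.

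The genes around these 10 in the pathway were taken from fixed lists of 34 genes, of which 31 passed 1 CPM in both libraries. The acetylation, protection and removal list (8 genes, all expressed) holds ESCO1 and ESCO2, which acetylate SMC3, HDAC8, which removes that mark, sororin (CDCA5) and shugoshin (SGO1), which protect cohesion, the cohesion-associated kinase HASPIN, separase (ESPL1) and its inhibitor securin (PTTG1). It ran from HDAC8, at 0.43 and 0.40 CPM per kb, to PTTG1, at 59.1 and 52.3 CPM per kb, with a median of 8.65. With MANE Select lengths HDAC8 stood at 5.41 CPM per kb, above ESCO1 at 4.89, and was no longer the lowest. ESCO2, the acetyltransferase of S phase, stood at 7.78 and 8.05 CPM per kb and ESCO1 at 3.77 and 4.54. Of this list 2 genes, CDCA5 and PTTG1, were higher in the first library by the exact binomial test, as were 11.4% of all genes tested. In the second library 0 were higher, against 7.9%. Both genes lie in the count range of the 10 genes, where 30.3% of genes differed in either direction.

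The meiotic forms of cohesin were low. SMC1B had 6 counts in each library and RAD21L1 4 and 2. STAG3 (67 and 50 counts) stood at 0.51 and 0.57 CPM per kb, and REC8, the meiotic kleisin (88 and 92 counts), at 1.07 and 1.68 CPM per kb. Of the 4 genes, 2 passed 1 CPM, and each lay below its mitotic counterpart per exon length in both libraries. REC8 was higher in the second library, with an adjusted p of 0.0355 from the exact binomial test, beside 7.9% of all genes tested.

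Condensin, which compacts mitotic chromosomes, was expressed throughout, 8 of 8 genes with a median of 18.0 CPM per kb. NCAPD2 was highest at 68.0 and 72.5 CPM per kb and NCAPD3 lowest at 3.01 and 3.48. The arms SMC2 (20.4 and 21.4 CPM per kb) and SMC4 (16.9 and 18.4 CPM per kb) lay between NCAPD3 and NCAPD2. All 6 genes of the SMC5/6 complex, which acts in DNA repair, were expressed, from SMC6 at 3.87 and 4.28 CPM per kb to NSMCE4A at 11.3 and 11.2. With MANE Select lengths NSMCE3, at 6.09 CPM per kb, was the lowest of these 6, SMC6 stood at 7.64 and NSMCE4A at 28.6. Between the libraries 1 of the 8 condensin genes, NCAPH2, differed (higher in the first), beside 11.4% of all genes tested. NCAPH2 lies in the count range of the 10 genes, where 30.3% of genes differed in either direction. Of the SMC5/6 genes 0 passed the exact binomial test after adjustment, and 1 had an unadjusted p under 0.05. Of the 7 other looping and insulator factors 6 passed 1 CPM, CTCFL being the exception. They ran from ZNF143 at 2.41 and 1.78 CPM per kb to MAZ at 45.6 and 43.2. Both were higher in the first library, 2 of 7 beside the same 11.4%, and MAZ lies in the count range given for NCAPH2. The median of this group, 17.8 CPM per kb, and that of condensin were above the 7.40 of the 10 CTCF and cohesin genes, all per annotated exon length and without a test.

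**Figure D5:**
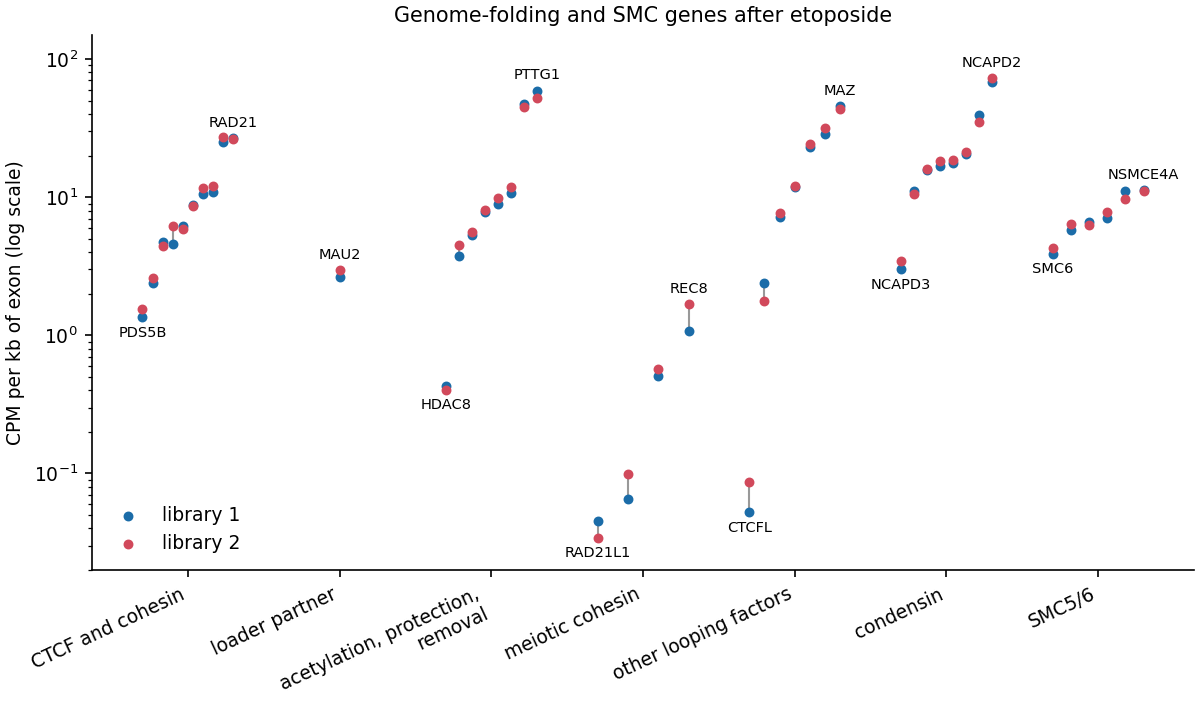
Levels in CPM per kb of exon on a log axis for the 10 genes and the pathway lists, each gene drawn as its first (blue) and second (red) etoposide library, with the lowest and highest gene of each list named. SMC1B, RAD21L1 and CTCFL lie at the bottom, and NCAPD2, PTTG1 and MAZ exceed RAD21 and SMC1A per annotated exon length. With MANE Select lengths RAD21 (104) is above NCAPD2 (94.2) and MAZ (61.4) but below PTTG1 (154).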

How the data were processed

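Poly-A RNA of U2OS cells was sequenced as paired-end reads in 6 libraries, 2 in each of 3 groups. Per the study's methods, HISAT2 2.1.0 placed the reads on GRCh38 and featureCounts (Subread 2.0.0) counted them by Ensembl gene. The authors deposited these as raw counts without normalization. The study's text names no strand or multi-mapping options, so genes that share exons or have close copies are uncertain. The etoposide libraries were used over 67140 genes. The control and adriamycin libraries, used over their first 220 to 292 genes with the incomplete last line left out, hold 0 of the 10 genes and 0 of the 34 pathway genes. The planned edgeR test between groups was therefore not run.

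CPM were computed from total counts. Gene names, spans and lengths came from GENCODE release 44, which gave symbols for 60357 identifiers. Differences between the etoposide libraries were tested with an exact binomial test (scipy 1.17.1, Python 3.11.15) on TMM-scaled sizes (edgeR 4.0.16, R 4.3.3). A check beforehand used simulated data with counting error only, as the test assumes. It does not cover any added spread between real libraries. DESeq2 1.42.0 size factors were an alternative. Named genes are the 10 genes, the highest and lowest of each pathway list, pathway lists of up to 4 genes whole, and others chosen after their values were seen (some cell type markers and, in the longer lists, CDCA5, NCAPH2, NSMCE3, ESCO1, ESCO2, SMC2, SMC4 and CTCFL). Genes and lists were chosen with earlier results of these data known.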

Additional observations from a re-analysis of the deposited data

How the results depend on the processing

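The gene length was the setting that mattered most. Only the length was changed, and the counts stayed those of the whole gene. On the log2 scale, STAG2 to STAG1 was −0.88 per annotated exon length, −0.041 with the longest transcript and, in the opposite direction, 0.12 with MANE Select lengths, an alternative added after seeing the data. SMC1A to SMC3 was 1.58, then 0.48 and 0.25, and RAD21 to SMC3 was 1.60, then 1.16 and 2.09. PDS5A to PDS5B, at 2.93, became 2.89 with both, which are the same setting here. For each of these genes the MANE Select transcript has the length of the longest transcript. At an adjusted p under 0.01 the exact binomial test left 1 of the 10 genes different between the libraries (NIPBL) in place of 2. With DESeq2 size factors, or with no filter beyond 1 count, NIPBL and RAD21 were the genes called. All 10 genes were over 1 CPM, over 5 CPM and over 10 counts in both libraries, and the number of pathway genes over the threshold was 31 at 1 CPM, 29 at 5 CPM and 32 at 10 counts. Levels of the 10 genes moved by less than 1 SD with TMM or DESeq2 scaling, and by more for 9 of them with either transcript length. With 2 libraries, leaving out either one gives back the value of the other, which the report prints. No paired analysis was possible because the 10 genes were analysed in 1 group only. The control and adriamycin levels of these genes were not analysed here, so no effect of either drug can be read from these values.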
